A study of Bos taurus with 15 samples.

Results

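The complement system and the coagulation cascade are proteolytic cascades of plasma in which each enzyme is activated by the one before it. The values of 54 of their genes were examined in subcutaneous adipose tissue of dairy cows, out of 13896 genes in the series, and each of the 54 names had an entry in all 6 tables of the study. The genes were picked by a list of names, drawn up with earlier results of these data known. They were arranged in 11 groups by role, from the C1 complex to the anticoagulants.

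Complement is started by C1q bound to a surface, by lectins, or by spontaneous activation of C3, and all routes meet at the cleavage of C3, which is followed by the assembly of a pore from the terminal components. Coagulation is started by tissue factor, leads through thrombin to fibrin that is cross-linked by factor XIII, and is limited by protein S, thrombomodulin and tissue factor pathway inhibitor. Most plasma proteins of both cascades are made by the liver, but C1q is known to be made by macrophages, von Willebrand factor and thrombomodulin by endothelial cells, and several complement proteins by adipose tissue cells.

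The cows were primiparous and of the breed Prim Holstein, and fat was biopsied from the dewlap under the neck. The prepartum libraries were taken 1 month before calving, before the diets began, and served both diets as the starting point. The other groups had been fed a low energy (LE) or a high energy (HE) diet from that month on and were sampled at 1 and 16 weeks after calving (wkpp). Each of the 5 groups had 3 libraries. For sequencing, the study chose cows with the more extreme energy balance at 1 wkpp from its groups of severe and moderate negative energy balance (SNEB and MNEB). The labels name the groups by diet, those names are used here, and which energy balance group each diet group held was not settled, so that diet and energy balance cannot be told apart in a difference between LE and HE. Comparisons across time may hold the same cows, which the labels do not pair, and the groups stand for extremes of the herd. No sequences are shown, since the data hold values per gene.

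Reads per library were derived from the authors' means and were divided by a size factor of each library; "count" below means such a normalised count of exon reads, and n = 3 libraries in every group. Libraries are numbered within a group from the largest to the smallest size factor. In units of 1e6, exon reads assigned to genes came to 8.34 to 14.9 in the prepartum and LE libraries and to 2.03 to 7.57 in the HE libraries. The diet and the depth after calving therefore cannot be told apart. Neither can time and depth between the prepartum libraries and those of HE 1 wkpp. Adipocyte markers were present in every library, with none of 7 genes, of 8 listed, at 0. Exon reads were found in 12522 to 13128 genes in prepartum library 3, LE 16 wkpp library 1, HE 1 wkpp libraries 2 and 3 and HE 16 wkpp library 1, and in 11184 to 12209 genes in the other libraries. In this bulk tissue, fewer cells of a type and less RNA per cell cannot be told apart.

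A gene was called when the adjusted p (limma, Benjamini-Hochberg over all genes tested) was below 0.01 both in exon reads and in reads of the whole gene, with the same sign. Fold changes are those of exon reads, first group over second, on the log2 scale with their standard error. Genes entered the test with a mean of at least 10 reads per library. Of the 54 genes, 40 passed this filter for exon reads in at least 1 comparison and 14 in none. Between 35 and 37 genes were tested in both analyses, according to the comparison, and between 38 and 40 in exon reads. At most 2 of them (F2 and F11, or F11 and FGB) had a mean under 10 reads in one of the groups compared. The genes C1QA, C1QB and C1QC had no whole gene read in any library, against 64133, 41068 and 33988 exon reads in all, and could not be called in both analyses.

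**Figure D1:**
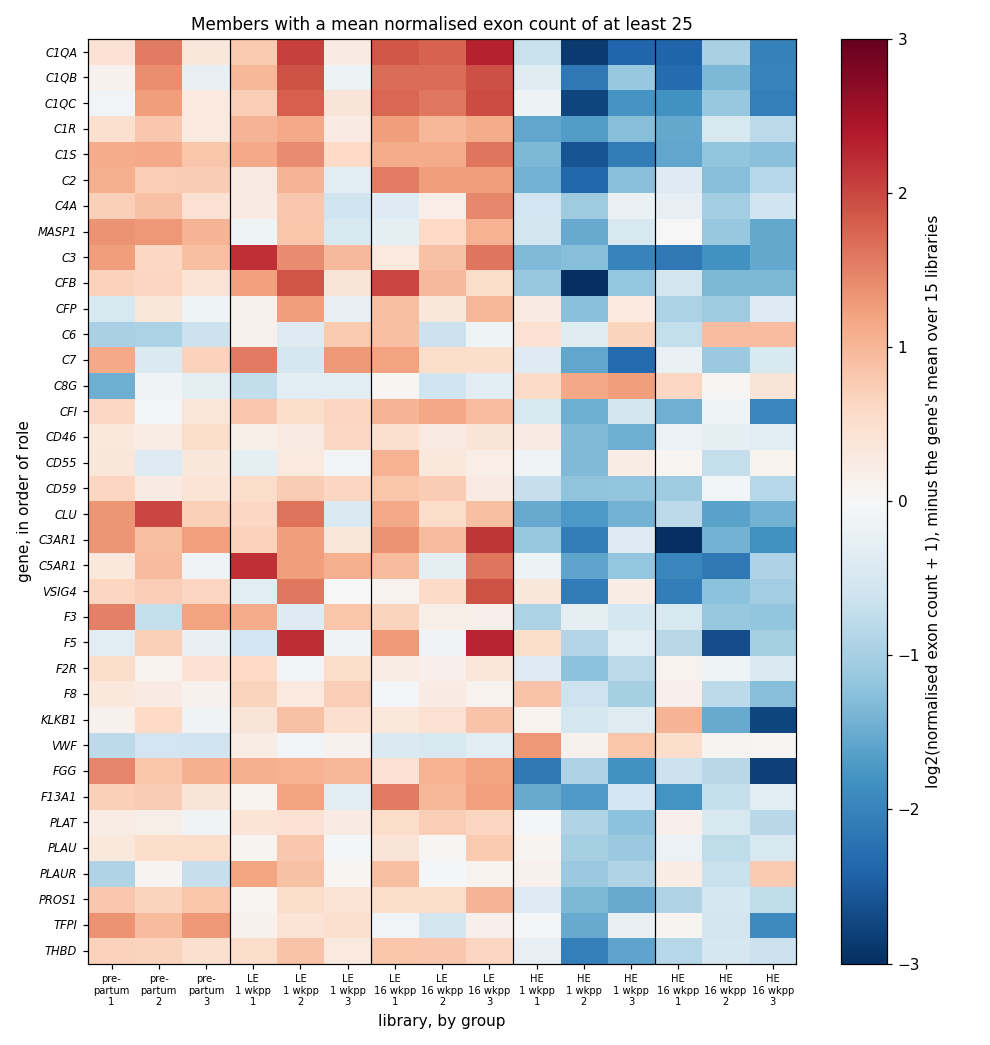
Counts of the 36 genes with a mean count of at least 25, in each of the 15 libraries (columns, by group, numbered by size factor), as log2(count + 1) minus the mean of the gene. Most rows are red in the prepartum and LE libraries and blue in the HE libraries, with VWF and C8G the other way.

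At 16 wkpp, 8 genes were higher in LE than in HE, and no gene was lower. They were C1R, C1S, C2, C3 and CLU of the complement system and F13A1, PROS1 and THBD of coagulation. These were 8 of 36 genes tested in both analyses, where 3.73% of all 10256 genes were called and 1.08% were called as higher in LE. In exon reads alone, 17 of 39 were higher in LE (3.32% of all genes), and they added C1QA, C1QB, C1QC, CFB, CFP, C7, CD59, CFI and C3AR1. The median log2 fold change of the 39 genes was 1.38, against 0.03 over all genes tested in exon reads, and 36 of the 39 were above 0. Counts did not overlap between the groups for 27 genes that were higher in LE (22.1% of all genes) and for 1 that was lower, VWF (21.7% of all genes).

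At 1 wkpp, no gene was called between LE and HE, and neither was any of the 10343 genes tested (0%), by limma with voom weights or, for the genes of the cascades, by limma-trend. At an unadjusted p under 0.05 in exon reads, 23 of 39 genes passed, against 3407 of 10464 genes. In exon reads alone, 5 of 39 were higher in LE at an adjusted p below 0.01 (0.593% of all genes): C1R, C1S, C3, CD59 and FGG. The median log2 fold change was 1.18, against 0.08 over all genes. Counts did not overlap for 21 genes that were higher in LE (19.2% of all genes) and for C8G, which was lower (20.3%).

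Compared with the prepartum time, C1S, C2 and C3 were lower in HE 1 wkpp, where depth was lower too. They were 3 of 36 genes tested in both analyses, where 1.84% of all 10391 genes were called and 1.02% were called as higher prepartum. In exon reads alone, 15 of 39 were higher prepartum (7.25% of all genes), namely C1QA, C1R, C1S, C2, C4A, MASP1, C3, CFB, CD59, CLU, C3AR1, FGG, F13A1, PROS1 and THBD. C8G and VWF were lower prepartum (9.38% of all genes). Counts of 23 genes did not overlap and were higher prepartum (23.2% of all genes), and those of 3 were lower (C6, C8G and VWF, 23.6%). The median log2 fold change was 1.32, against 0.06 over all genes.

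From the prepartum time to 1 wkpp in LE, no gene of the cascades was called, against 0.0378% of all 10582 genes, and 7 of 40 had an unadjusted p under 0.05 in exon reads, against 1557 of 10715 genes. Counts did not overlap for 3 genes that were higher prepartum, MASP1, PROS1 and TFPI (10.4% of all genes), and for 4 that were lower, C5AR1, C6, PLAT and VWF (9.24%). This comparison and the one in HE share the prepartum libraries, and each group at 1 wkpp serves 3 of the 6 comparisons.

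From 1 to 16 wkpp, no gene was called in either diet, and none of the 9862 genes tested in HE or the 10514 in LE was called either (0% in both). At an unadjusted p under 0.05 in exon reads, 4 of 38 genes passed in HE, against 1344 of 9964 genes, and 6 of 39 in LE, against 766 of 10645. In HE, the counts of no gene were apart between the times in either direction (9.77% and 10.3% of all genes were apart, higher and lower at 1 wkpp). In LE, F8 and VWF were apart and higher at 1 wkpp (8.01% of all genes), and C2, CFI and PLAT were apart and lower (4.09%). The change from 1 to 16 wkpp was also compared between the diets. By limma, no gene was called of 36 in the cascades or of 10302 in all (0%). In exon reads, 517 genes had an unadjusted p under 0.05, among them 2 of the cascades, C1QB and C3AR1.

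**Figure D2:**
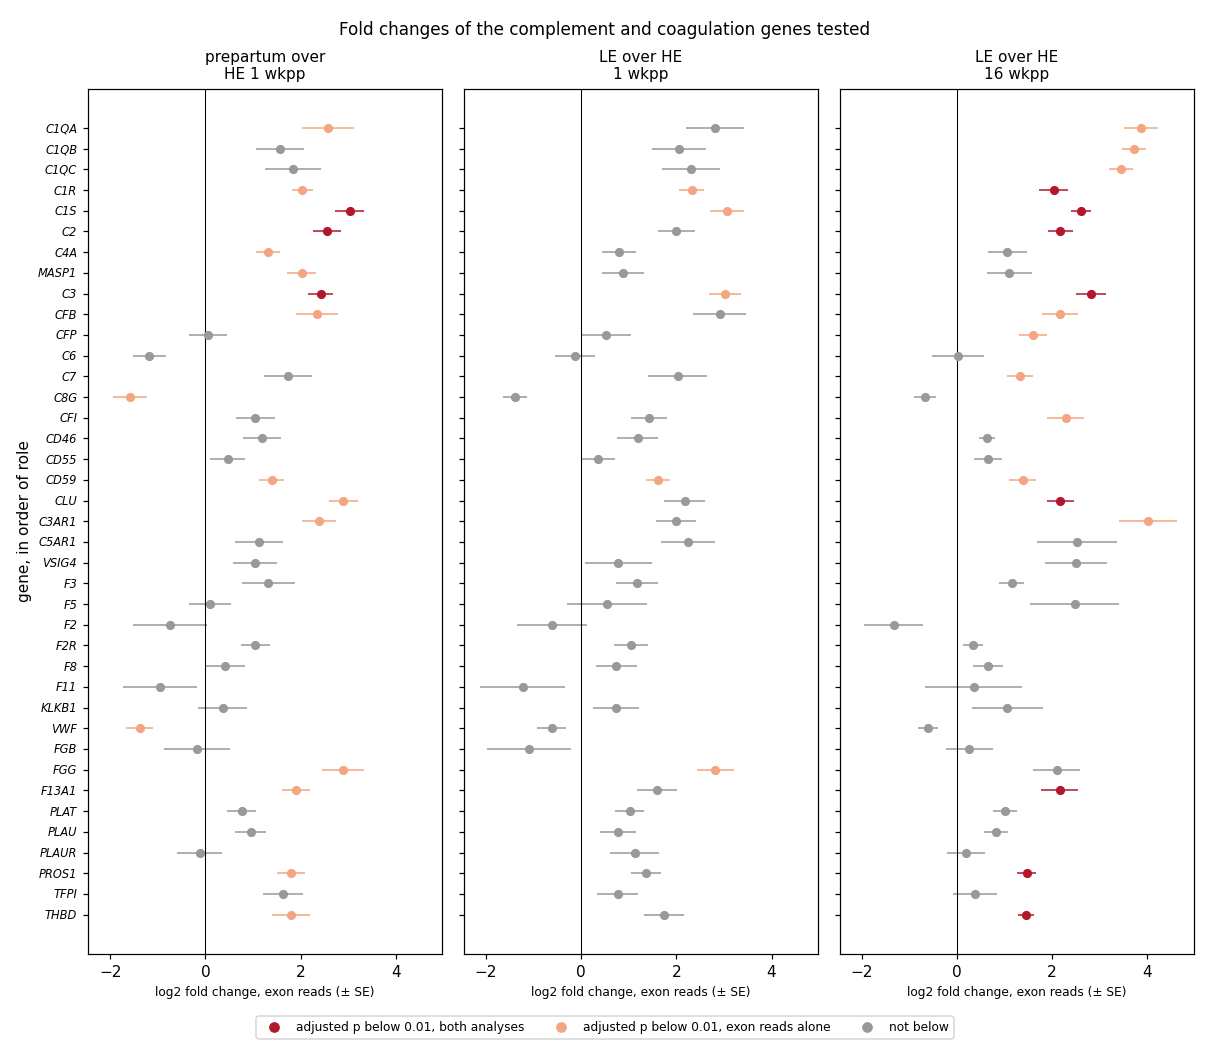
Log2 fold changes of the genes tested in exon reads (points) with their SE (bars) in 3 comparisons, in order of role. At 16 wkpp, 8 genes were called in both analyses (dark red) and 9 more in exon reads alone (light red); at 1 wkpp none was called in both analyses.

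The C1 complex consists of the recognition protein C1q, made of 3 chains, and the proteases C1r and C1s. All 5 of its genes had counts that were higher in LE than in HE without overlap at both times after calving (19.2% of all genes at 1 wkpp and 22.1% at 16 wkpp), with a median log2 fold change of 2.32 at 1 wkpp and 3.45 at 16 wkpp. C1S counts were 9492, 9462 and 13343 in LE 16 wkpp and 1490.3, 1941 and 1849.6 in HE 16 wkpp. The lowest LE library thus lay far above the highest HE library, and the log2 fold change was 2.60 ± 0.21 (adjusted p = 0.00044). At 1 wkpp, the C1S counts amounted to 9762, 11700.3 and 6642 for LE and 1722, 727 and 1033 for HE, with a log2 fold change of 3.06 ± 0.35 (adjusted p = 0.0056 in exon reads and 0.042 in whole gene reads). The prepartum counts of C1S, 9579.8, 9653 and 7823, lay within the range of the LE libraries and above all HE libraries. They were higher than in HE 1 wkpp by a log2 fold change of 3.03 ± 0.31 (adjusted p = 0.00019).

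C1R counts were 11112, 9159 and 9980.1 in LE 16 wkpp and 1585, 3313 and 2643 in HE 16 wkpp, a log2 fold change of 2.03 ± 0.30 (adjusted p = 0.0023). LE libraries had 9418, 10179.5 and 5461 at 1 wkpp, HE libraries 1569, 1454 and 1893 and prepartum libraries 6403, 8078 and 5679. No HE library reached the lowest library of the other groups. The difference between LE and HE at 1 wkpp was 2.32 ± 0.26 (adjusted p = 0.0056 in exon reads, 0.042 in whole gene reads), and that between the prepartum time and HE 1 wkpp was 2.04 ± 0.22 (adjusted p = 0.00024 and 0.01).

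The chains of C1q were singled out after their values were seen. C1QA counts were 5519.7, 5144 and 7542 in LE 16 wkpp and 287, 769 and 371 in HE 16 wkpp. They were 2600.4, 6259 and 1809 in LE 1 wkpp, 947, 205 and 290.4 in HE 1 wkpp and 2039, 4435 and 1910.1 before calving. The groups did not overlap at 16 wkpp, with exon log2 fold changes of 3.87 ± 0.36 for C1QA, 3.72 ± 0.26 for C1QB and 3.45 ± 0.25 for C1QC (adjusted p = 0.00061, 0.00028 and 0.00028). At 1 wkpp the same differences were 2.82 ± 0.61, 2.06 ± 0.57 and 2.31 ± 0.61, with adjusted p = 0.019, 0.04 and 0.035, above the threshold.

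Markers of macrophages were also higher in LE than in HE. Without overlap were 6 of 8 at 1 wkpp (19.2% of all genes) and 8 of 8 at 16 wkpp (22.1% of all genes), with medians of 1.48 and 2.93. For the prepartum time against HE 1 wkpp, 2 of the 8 were higher without overlap, close to the 23.2% of all genes, with a median of 0.74. The C1 complex had 5 of 5 higher without overlap and a median of 2.04. The summed count of 8 of 10 listed macrophage genes, none of them at 0 in any library, was 12374 to 16623 in LE 16 wkpp and 2201 to 2667 in HE 16 wkpp. It was 9188 to 15407 in LE 1 wkpp, 2256 to 7685 in HE 1 wkpp and 6521 to 8805 before calving, so that HE 1 wkpp overlapped with the prepartum time. The sum of 7 of 8 fibroblast genes, again none at 0, was 120234 to 311014 in LE 16 wkpp and 38486 to 60346 in HE 16 wkpp, 56546 to 146893 and 29201 to 62972 at 1 wkpp, and 188516 to 218941 before calving. The sum of 4 of 6 mast cell genes was 2121 to 2576 in LE 16 wkpp and 254 to 561 in HE 16 wkpp, 1144 to 3237 and 284 to 434 at 1 wkpp, and 3025 to 4671 before calving; TPSB2 and HDC were at 0 in some libraries. The adipocyte sum was 42069 to 48437 in LE 16 wkpp and 10179.6 to 40833 in HE 16 wkpp, 71974 to 87878 and 19668 to 56606 at 1 wkpp, and 50346 to 59799 before calving. It was mostly made of FABP4 and PLIN1 reads, and its genes did not move as one: at 16 wkpp, 4 of the 7 had a log2 fold change above 0, with a median of 0.11, and LEP counts were 41.6, 8.57 and 12.9 in the LE libraries and 154, 36 and 48.7 in the HE libraries. For the prepartum time against HE 1 wkpp, 4 of the 7 were called as higher (1.02% of all genes), and the median was 2.24. Without overlap, 5 were higher (23.2% of all genes) and 1 was lower (23.6%). Between LE and HE at 1 wkpp, 4 were higher in LE without overlap (19.2% of all genes), and the median was 1.45. From the prepartum time to LE 1 wkpp, 4 of the 7 were higher prepartum without overlap (LEP, CIDEC, CIDEA and GPD1, 10.4% of all genes). The other 3 were lower (PLIN1, FABP4 and LIPE, 9.24% of all genes). The part of these cells in the differences of complement and coagulation genes was not tested.

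C2 and C4 are cleaved by C1s to form the C3 convertase of the classical pathway, and the lectin pathway reaches them through the MASP proteases. C2 counts were 5095, 4159.7 and 4160.1 in LE 16 wkpp and 1349, 719.8 and 972 in HE 16 wkpp, a log2 fold change of 2.17 ± 0.26 (adjusted p = 0.001). LE libraries of 1 wkpp held C2 counts of 2111, 3554 and 1381, and HE libraries 653, 340.5 and 735. All LE libraries were above all HE libraries at either time, but the difference at 1 wkpp, 2.00 ± 0.39, was not called (adjusted p = 0.014). Before calving, C2 counts were 3714, 2936 and 2998, higher than in HE 1 wkpp by 2.55 ± 0.29 (adjusted p = 0.00032). The LE counts of C2 at 1 and 16 wkpp were apart, with a log2 fold change of -1.05 ± 0.32 for 1 over 16 wkpp (adjusted p = 0.68).

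C4A codes for a form of C4, and MASP1 for a protease of the lectin pathway. C4A counts were 1256, 1877 and 4462 in LE 16 wkpp and 1375, 797 and 1078 in HE 16 wkpp, which overlapped, with a log2 fold change of 1.06 ± 0.41 (adjusted p = 0.089). C4A counts reached 2670.2, 3019 and 2244 before calving and 1094, 776 and 1423 in HE 1 wkpp, without overlap (1.32 ± 0.25, adjusted p = 0.0037 in exon reads and 0.058 in whole gene reads). Reads of C4A could be split with near-identical C4 copies, so its level is uncertain. MASP1 counts were 670.4, 645 and 531 before calving, against 241, 466 and 187 in LE 1 wkpp and 179, 91.9 and 187 in HE 1 wkpp. The prepartum libraries lay above both groups at 1 wkpp, by 1.15 ± 0.30 over LE (adjusted p = 0.11) and by 2.02 ± 0.30 over HE (adjusted p = 0.001 in exon reads, 0.02 in whole gene reads). Both genes were singled out after their values were seen.

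C3 is the point where all routes of complement meet, and factor B and properdin form and stabilise the convertase of the alternative pathway. C3 counts were 1748, 2601 and 4312 in LE 16 wkpp and 319, 401 and 493 in HE 16 wkpp, a log2 fold change of 2.82 ± 0.32 (adjusted p = 0.00096). C3 at 1 wkpp had counts of 6471, 3803 and 2788 in the LE libraries and 571, 589 and 353 in the HE libraries, a log2 fold change of 3.02 ± 0.34 (adjusted p = 0.0056 in exon reads and 0.042 in whole gene reads). The highest HE library thus lay below the lowest of all other libraries. Prepartum counts were 3388, 2183 and 2669, a difference from HE 1 wkpp of 2.42 ± 0.27 (adjusted p = 0.00027). CFB was higher in LE than in HE without overlap at both times, by 2.91 ± 0.56 at 1 wkpp (adjusted p = 0.013) and 2.16 ± 0.38 at 16 wkpp (adjusted p = 0.0048 in exon reads and 0.015 in whole gene reads). The difference of CFP was 1.59 ± 0.29 at 16 wkpp (adjusted p = 0.0058 and 0.023) and by 0.53 ± 0.52 at 1 wkpp (adjusted p = 0.51).

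Of the 7 terminal components, which build the membrane attack complex, C6, C7 and C8G passed the filter. C7 counts were 2319.6, 1483 and 1459 in LE 16 wkpp and 869.9, 468 and 734 in HE 16 wkpp, a log2 fold change of 1.32 ± 0.27 (adjusted p = 0.0094 in exon reads and 0.023 in whole gene reads). In the 1 wkpp libraries, C7 stood at 2943, 707 and 2470.5 for LE and 769, 343 and 199 for HE, with prepartum counts of 2217, 746 and 1624. The groups overlapped at 1 wkpp, and the difference was 2.03 ± 0.62 (adjusted p = 0.055). C8G, which codes for the gamma chain of C8, went the other way, and was singled out after its values were seen. Its counts were 97.8, 252 and 220.4 before calving, 162, 218 and 218 in LE 1 wkpp and 404, 605 and 639.7 in HE 1 wkpp, where every library was above those of the other 2 groups. The prepartum time differed from HE 1 wkpp by -1.59 ± 0.36 (adjusted p = 0.0083 in exon reads and 0.052 in whole gene reads).

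Among the regulators, clusterin (CLU) keeps the terminal complex from inserting into membranes, factor I (CFI) cleaves C3b, and CD46, CD55 and CD59 protect host cells. CLU counts were 22475, 14851 and 19098 in LE 16 wkpp and 5908, 3347 and 3813 in HE 16 wkpp, a log2 fold change of 2.17 ± 0.28 (adjusted p = 0.0014). Prepartum CLU counts were 25702, 40868 and 16657, those of LE 1 wkpp were 15789, 31786 and 7556, and those of HE 1 wkpp were 3579, 3078 and 3834. Every HE library was below every other library. The difference between LE and HE at 1 wkpp was 2.18 ± 0.43 (adjusted p = 0.014), and that between the prepartum time and HE 1 wkpp was 2.90 ± 0.31 (adjusted p = 0.00021 in exon reads and 0.011 in whole gene reads). All 5 regulators had counts that were higher in LE without overlap at 16 wkpp (22.1% of all genes), with log2 fold changes from 0.63 (CD46) to 2.28 (CFI), and CFI and CD59 passed the threshold in exon reads (adjusted p = 0.004 and 0.0085) and not in whole gene reads (0.028 and 0.021).

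The receptors C3AR1 and C5AR1 bind the anaphylatoxins C3a and C5a, and VSIG4 binds C3b on macrophages. C3AR1 counts were 567, 427 and 976 in LE 16 wkpp and 20.5, 82.3 and 62.3 in HE 16 wkpp, a log2 fold change of 4.02 ± 0.61, the largest of the 39 genes in that comparison (adjusted p = 0.0025 in exon reads and 0.012 in whole gene reads). For 1 wkpp, C3AR1 gave 361, 525 and 281 in the LE libraries and 100.1, 51.3 and 169 in the HE libraries, after 554, 418 and 523 before calving. No HE library reached the others. The log2 fold change of C3AR1 for 1 over 16 wkpp was lower in LE than in HE by a difference of -2.03 ± 0.79, which was not called (limma, adjusted p = 0.97). C5AR1 and VSIG4 were apart at 16 wkpp as well, by 2.52 ± 0.84 and 2.50 ± 0.66, with adjusted p = 0.057 and 0.025.

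**Figure D3:**
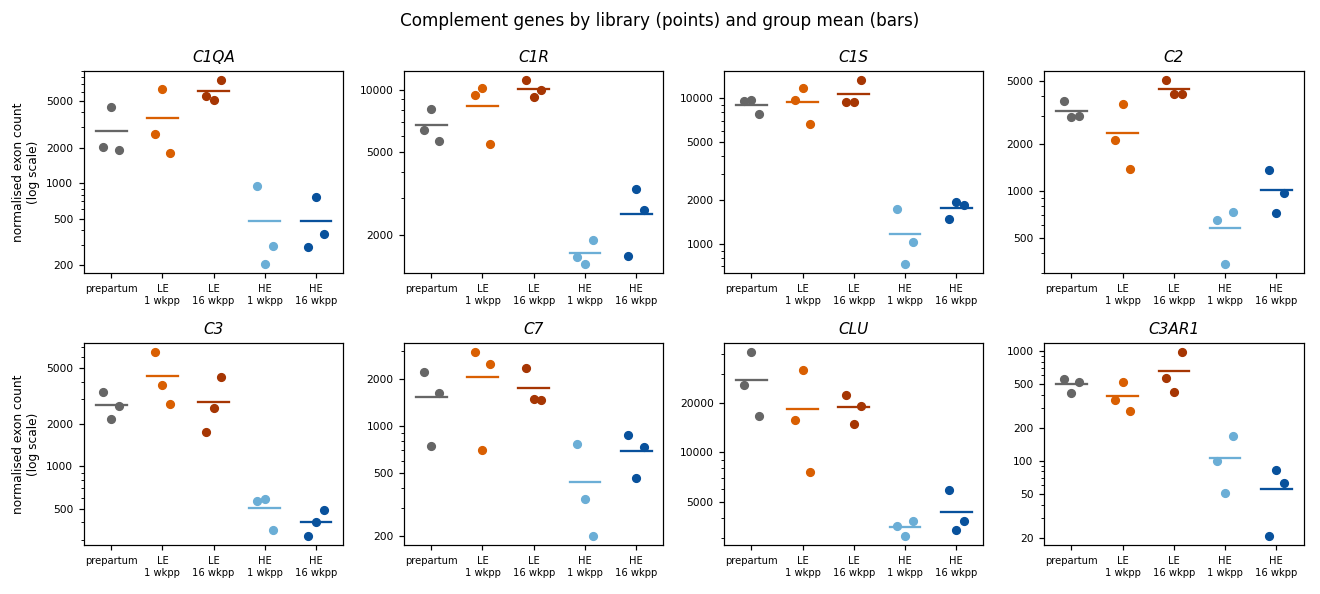
Normalised exon counts of 8 complement genes on log axes, by group, with each of the 3 libraries as a point and the group mean as a bar. C3 lay at 319 to 589 in the 6 HE libraries and at 1748 to 6471 in the other 9.

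Tissue factor (F3) starts coagulation, and factor V, prothrombin (F2) and the thrombin receptor F2R belong to the common part of the cascade. F3 counts were 535, 381 and 375 in LE 16 wkpp and 241, 154 and 149 in HE 16 wkpp, a log2 fold change of 1.15 ± 0.26 (adjusted p = 0.013). LE libraries had 737, 256 and 598 at 1 wkpp, HE libraries 175, 276 and 235 and prepartum libraries 966, 206 and 778. Library 2 of the prepartum group and library 2 of LE 1 wkpp lay within the range of HE 1 wkpp, and the difference at 1 wkpp was 1.18 ± 0.44 (adjusted p = 0.098). F5 and F2R were not called in any comparison. F5 varied within groups, with counts of 90.8, 636 and 126 in LE 1 wkpp and 332, 125 and 664 in LE 16 wkpp.

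Von Willebrand factor (VWF) carries factor VIII and binds platelets to the vessel wall. VWF counts were 8856, 10205 and 10015 before calving, 17821, 14412 and 16669.8 in LE 1 wkpp and 37178, 16451 and 27068 in HE 1 wkpp. Both groups at 1 wkpp lay above the prepartum libraries. The prepartum time differed from HE by -1.38 ± 0.29 (adjusted p = 0.006 in exon reads and 0.042 in whole gene reads) and from LE by -0.75 ± 0.17 (adjusted p = 0.076). At 16 wkpp, the LE libraries held VWF counts of 11266, 10826 and 12004 and the HE libraries 21686, 15991 and 15593, with HE higher and no overlap (-0.60 ± 0.21, adjusted p = 0.07 in exon reads and 0.015 in whole gene reads). The sum of 8 endothelial markers, none at 0, was 12519 to 16659 before calving, 18254 to 23254 in LE 1 wkpp, 15924 to 31170 in HE 1 wkpp, 13796 to 16312 in LE 16 wkpp and 11163 to 16462 in HE 16 wkpp. It overlapped between LE and HE at both times. The sum of the 2 platelet genes with entries, of 6 listed and neither at 0, was 146 to 233 before calving, 197 to 252 and 149 to 260.3 in LE 1 and 16 wkpp, and 449 to 1360.2 and 357 to 536 in HE 1 and 16 wkpp. The part of either cell type in the VWF values was not tested.

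Fibrinogen is the substrate of thrombin, and factor XIII, whose A chain is coded by F13A1, cross-links fibrin. F13A1 counts were 13344, 8946 and 10536 in LE 16 wkpp and 1305, 2738 and 3545 in HE 16 wkpp, a log2 fold change of 2.16 ± 0.39 (adjusted p = 0.0052). In the 1 wkpp libraries, F13A1 stood at 4830.1, 10391 and 3537 for LE and 1579.8, 1378 and 3037 for HE, with prepartum counts of 7409, 7676 and 5933. All HE libraries were below the other libraries, except that the highest HE 16 wkpp library was above the lowest of LE 1 wkpp. The differences from HE 1 wkpp were 1.60 ± 0.42 for LE (adjusted p = 0.033) and 1.90 ± 0.30 for the prepartum time (adjusted p = 0.0013 in exon reads and 0.016 in whole gene reads). FGG, the gamma chain of fibrinogen, was singled out after its values were seen, with counts of 251, 247 and 238 in LE 1 wkpp and 26.1, 62.2 and 33.1 in HE 1 wkpp (2.82 ± 0.39, adjusted p = 0.0078 in exon reads and 0.057 in whole gene reads). The other chains did not share this level of reads, since FGA did not pass the filter and FGB had a mean count of 17.6 over the 15 libraries.

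In fibrinolysis, tissue plasminogen activator (PLAT) and urokinase (PLAU) turn plasminogen into plasmin, and PLAUR is the receptor of urokinase. PLAT counts were 1369, 1562 and 1455 in LE 16 wkpp and 1037, 661 and 525 in HE 16 wkpp, a log2 fold change of 1.00 ± 0.25 (adjusted p = 0.02). Prepartum PLAT counts were 1084, 1055 and 860.2, those of LE 1 wkpp were 1232, 1253 and 1099, and those of HE 1 wkpp were 899.9, 499.9 and 393. LE and HE counts of PLAT did not overlap at either time after calving. With all libraries of the groups, neither difference passed the threshold (adjusted p = 0.051 at 1 wkpp). Without HE library 1, PLAT was called at 1 wkpp. PLAU and PLAUR had log2 fold changes at 16 wkpp of 0.82 ± 0.26 (adjusted p = 0.05) and 0.19 ± 0.40 (adjusted p = 0.75).

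Among the anticoagulants, protein S (PROS1) is the cofactor of activated protein C, and thrombomodulin (THBD) turns thrombin into the activator of protein C. PROS1 counts were 1942, 1933 and 2710 in LE 16 wkpp and 706, 920.3 and 785 in HE 16 wkpp, a log2 fold change of 1.46 ± 0.20 (adjusted p = 0.0016). For 1 wkpp, PROS1 gave 1372, 1951 and 1759 in the LE libraries and 1022, 519 and 463 in the HE libraries, after 2331, 2119 and 2363 before calving. Every HE library was below every other library. The difference at 1 wkpp was 1.36 ± 0.32 (adjusted p = 0.024).

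THBD counts were 1887, 1860.1 and 1675 in LE 16 wkpp and 590.0, 748 and 682 in HE 16 wkpp, a log2 fold change of 1.45 ± 0.17 (adjusted p = 0.00097). LE libraries had 1566, 1915 and 1309 at 1 wkpp, HE libraries 899.9, 257 and 353 and prepartum libraries 1729, 1702 and 1489.8. THBD too was lower in all HE libraries than in all others. The differences from HE 1 wkpp were 1.73 ± 0.42 for LE (adjusted p = 0.027) and 1.80 ± 0.40 for the prepartum time (adjusted p = 0.0072 in exon reads and 0.08 in whole gene reads). TFPI, tissue factor pathway inhibitor, had prepartum counts of 166, 125 and 159.7, above the 69.7, 85.6 and 89.5 of LE 1 wkpp and the 62.6, 21.6 and 55.1 of HE 1 wkpp. Neither difference passed (0.87 ± 0.23, adjusted p = 0.11, and 1.64 ± 0.42, adjusted p = 0.014), and TFPI was singled out after its values were seen.

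**Figure D4:**
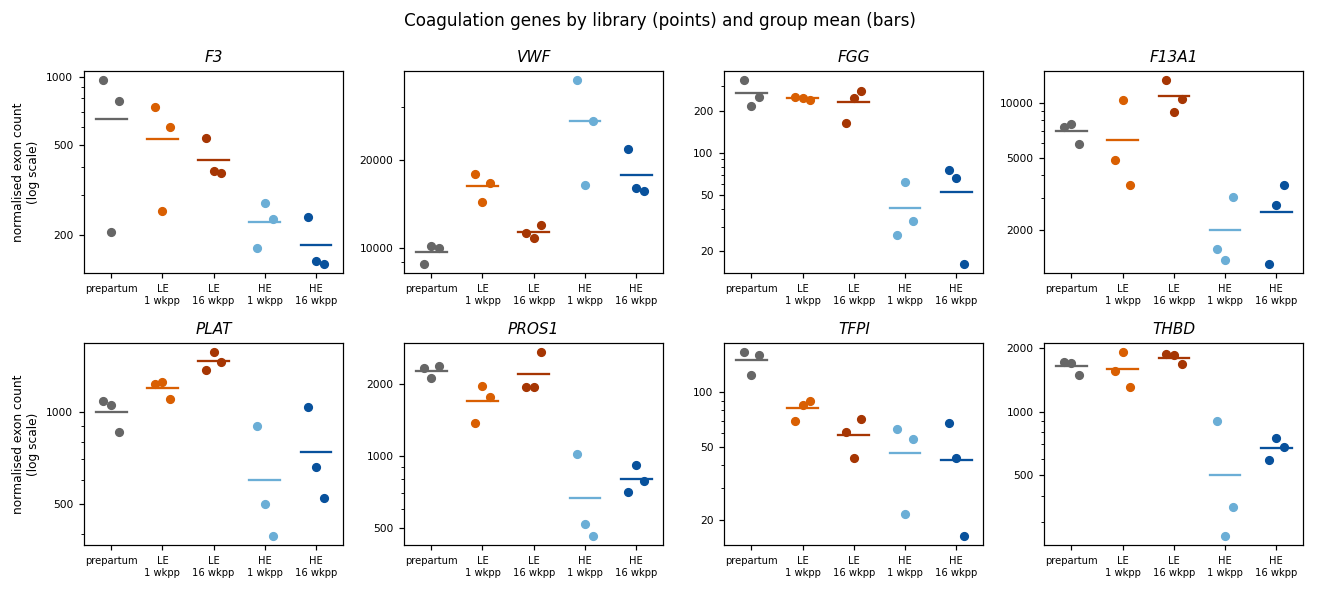
Normalised exon counts of 8 coagulation genes on log axes, by group, with each of the 3 libraries as a point and the group mean as a bar. PROS1 and THBD were lower in all 6 HE libraries than in the other 9, whereas VWF was higher in HE than in LE at 16 wkpp in every library.

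The 14 genes under the filter in every comparison were mainly those of plasma proteins made by the liver: MASP2, MBL2, C5, C8A, C8B, C9, F7, F10, F9, KNG1, FGA, F13B, PLG and PROC. They had 442 exon reads in all 15 libraries together, between 1 (F7) and 106 (C5) per gene. Prepartum library 3 held 90 of these reads, HE 1 wkpp libraries 2 and 3 held 72 and 55, LE 16 wkpp library 1 held 55 and HE 16 wkpp library 1 held 33, in 11 to 13 of the 14 genes. The other libraries held 3 to 32 reads in 2 to 6 of the genes. Whole gene reads of these genes were more numerous, for instance 581 against 27 exon reads of C9 and 572 against 23 of C8A. F12 passed the filter only in the comparison of the prepartum time with LE 1 wkpp. ALB, APOA2, AHSG, FETUB and HPX, of 8 hepatocyte markers listed, were at 0 in some libraries and at a count of at most 29.4 in any. The other 3 were never at 0, with counts of 92.1 to 527 for APOA1, 11.7 to 459.8 for TTR and 12.5 to 128 for CYP3A4, and the summed count of the 8 was 173 to 858 over all libraries. These differences in reads were not tested.

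Other genes of the pathways were looked at by lists, of 14 complement and 23 coagulation and fibrinolysis genes. At 16 wkpp, 3 of 11 complement genes tested (27.3%) were called as higher in LE than in HE, against 1.08% of all genes, and they included CR2, the receptor of C3d on B cells and follicular dendritic cells, by 3.95 ± 0.42 (adjusted p = 0.00079), and SERPING1, the inhibitor of C1r and C1s, by 2.08 ± 0.20 (adjusted p = 0.00064). Of 16 coagulation genes tested, 1 was called (6.25%, against 1.08% of all genes called as higher), namely A2M, a broad inhibitor of proteases, which was higher by 2.85 ± 0.30 (adjusted p = 0.00079). SERPING1 (1 of 11 complement genes) and A2M (1 of 16 coagulation genes) were called as higher prepartum than in HE 1 wkpp. Of all genes, 1.02% were called as higher prepartum. The log2 fold changes of SERPING1 and A2M were 2.27 ± 0.21 and 2.86 ± 0.29 (adjusted p = 0.00014 and 0.00017). In the 4 other comparisons, no gene of these lists was called. The medians between LE and HE at 16 and 1 wkpp were 2.08 and 1.58 for the complement list and 0.19 and 0.67 for the coagulation list, against 0.04 and 0.08 over all genes tested in both analyses.

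The number of called genes depended on single libraries. At 16 wkpp it was 3, 0 and 1 without LE library 1, 2 or 3, and 4, 2 and 0 without HE library 1, 2 or 3. For the prepartum time against HE 1 wkpp it was 0 without any 1 of the prepartum libraries or without HE library 2 or 3, and 3 without HE library 1, where C1S, CD46 and PROS1 were called and C2 and C3 were not. For LE against HE at 1 wkpp it was 8 without HE library 1 and 0 without any other library. With the deepest HE library as the only one of its group, an alternative chosen after seeing the data, no gene was called in these comparisons, and the log2 fold changes of the called genes were 1.61 to 3.09 at 16 wkpp and 2.21 to 2.35 for the prepartum time against HE 1 wkpp.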

How the data were processed

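Total RNA of 15 adipose tissue libraries was sequenced after ribosomal depletion with a stranded kit. Per the labels and the study's methods, reads were trimmed with cutadapt 1.3, aligned to bosTau8 with TopHat2 and counted per gene with HTSeq, once on exons and once on the whole gene. Each of the 6 deposited tables holds, as the authors' value per gene, the mean over 6 libraries of counts divided by DESeq2 size factors; their fold changes and p-values were not used. No column belonged to other samples (0 columns).

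Since each mean is a sum of whole reads with fixed weights, the weights were read from genes with reads in a single library of a table, and whole reads per library were solved by lattice reduction, with a relative error under 2e-14. This gave 13894 of 13896 genes for exons and 13892 for whole genes; size factors recomputed from them differed from those in the means by at most 0.000388 and 0.000722 (relative). The libraries can be told by group, not by sample. Exon and whole gene libraries were matched within groups by their best mean correlation (0.825 to 0.905). The tables hold no counts as such, so limma (voom weights, 1 fit per comparison) was used. Intervals and tests cover the spread between these libraries only. Methods were tested on simulated data.

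Genes with values per library are those called and, per role, the one with the highest mean count; other names were added after seeing values. A result for 1 gene of the complement list is not reported here. Genes and lists were chosen with earlier results of these data known. Sample titles carry a code (m1 or m2) that is constant within a group and not explained. Alternatives were other thresholds, scalings, filters, models and left-out libraries. Computations used Python 3.11.15, numpy 2.4.6, pandas 2.3.3, sympy 1.14.0, mpmath 1.4.1, matplotlib 3.10.9, R 4.3.3 and limma 3.58.1.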

Additional observations from a re-analysis of the deposited data

Results flagged for a closer look

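Synthetic spike-in RNAs, which no comparison used, made up 3.58% to 23.3% of the exon reads in the HE libraries, above the 0.578% to 1.76% of the prepartum libraries and the 2.03% reached in LE. The shares cover the 87 of 92 spike-ins whose reads were solved, and are lower limits. Their bearing on the complement and coagulation genes was not tested. Groups of 3 libraries were not tested for outliers, and no change from 1 to 16 wkpp was called as differing between LE and HE.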

How the results depend on the processing

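The number of genes called depended on the settings. For the prepartum time against HE 1 wkpp (3 called), it was 12 at an adjusted p below 0.05 and 17 in exon reads alone. It was 6 with total count scaling, 6 with upper quartile scaling, 0 without the filter and 11 in a fit of all 15 libraries. With 1 library left out it was 0 to 3. Whole gene reads alone called the same 3, and limma-trend added C1R. For LE against HE at 16 wkpp (8 called), the number was 15 at an adjusted p below 0.05, 17 in exon reads alone, and 0 to 4 with 1 library left out. A fit of all 15 libraries called 7 genes and lost 2 of the 8. The same 8 were called in whole gene reads alone and with either scaling. Limma-trend added C3AR1 and CFB to the 8, whereas C3 and F13A1 were lost without the filter. For LE against HE at 1 wkpp (0 called), the number was 3 at an adjusted p below 0.05, 5 in exon reads alone and 4 in the fit of all 15 libraries. It was 0 to 8 with 1 library left out, the 8 without HE library 1. With the deepest HE library as the only one of its group, an alternative chosen after seeing the data, 0 genes were called in these comparisons; the lone library is then assumed to vary like the other group. The same could not be run for HE 1 against 16 wkpp, which would leave no spread. The other comparisons stayed at 0 in each alternative run. The cause of these changes was not tested.

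Of the fold changes of the 8 called genes over 6 comparisons and all alternatives, 580 kept their side of the threshold, 36 passed it, 73 lost it and 7 turned their sign. Those that turned were small: for the prepartum time against LE 1 wkpp, THBD at -0.08 with total count scaling and -0.09 without LE library 3, F13A1 at -0.03 without LE library 3, C1S at 0.08 without prepartum library 3 and 0.03 and 0.15 without LE library 1 or 2; and CLU at 0.26 for LE 1 against 16 wkpp without LE 1 wkpp library 3. With 1 library left out, the ranges were -0.26 to 0.15 for C1S, -0.03 to 0.75 for F13A1 and -0.09 to 0.19 for THBD in the first comparison, and -0.79 to 0.26 for CLU in the second. Total count scaling moved the median of all genes from 0.06 to -0.12 for the prepartum time against HE 1 wkpp and from -0.03 to -0.17 against LE 1 wkpp. No paired analysis was possible because the labels give no number that links libraries across groups. Depth limits the HE libraries most, whose shallowest held 2.03 (in units of 1e6) exon reads.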

Other observations

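Exon and whole gene reads gave different fold changes for some genes. For the prepartum time against HE 1 wkpp, the exon value exceeded the whole gene value by 1.57 for TFPI, where exon reads were 16.9% of the whole gene reads, by 1.04 for CFI (68.6%) and by 0.72 for CD59 (56.2%). For the 10 genes with at least 90% of reads on exons, among them C1R, C1S, C3, CLU and THBD, it exceeded it by 0.05 to 0.27, with a median of 0.14. For the other 26 genes, the difference ranged from -0.73 to 1.57, with a median of 0.39. These genes were singled out after their values were seen, and the difference was not tested.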
